A study of Mus musculus with 8 samples.

Results

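DnaJ co-chaperones are proteins with a J domain, and their mRNAs on polysomes were compared between mouse eggs and one-cell embryos. The members are all probe sets whose only annotated gene symbol is Dnaja, Dnajb or Dnajc followed by a number. The rule found 44 genes among 18193 with a symbol of their own (104 of 45037 probe sets): 4 of class A, 13 of class B and 27 of class C. The study measured polysomal mRNA, the mRNA carried by clusters of translating ribosomes, on 1-colour arrays. It has 4 arrays of Mus musculus oocytes arrested at metaphase II (MII) and 4 of 1-cell embryos that had been treated with alpha-amanitin, an inhibitor of RNA polymerase II, and the labels give neither strain nor age. Each array held RNA of a separate batch of 160 to 500 eggs or embryos, amplified by 2 rounds of in vitro transcription. Stage and alpha-amanitin treatment changed together, so their parts cannot be told apart.

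J-domain proteins bring client proteins to the chaperone Hsp70 and stimulate its ATPase, which makes Hsp70 close on the client. Class A members carry, after the J domain, a stretch rich in glycine and phenylalanine and a zinc finger. Class B members have the glycine-phenylalanine stretch without the zinc finger, and class C members share only the J domain and differ widely in the rest. Class C proteins place Hsp70 at particular sites, such as the endoplasmic reticulum (ER), the mitochondrion, the ribosome or the spliceosome. An egg is transcriptionally silent and makes its proteins from stored mRNAs at this stage.

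The ER members Dnajc3 and Dnajc10 and the nuclear and cytosolic member Dnajb6 are described below with the RefSeq bases just before their gene starts (GRCm38.p6), shown so that members that moved in opposite directions can be compared. Capitals mark the match to a heat shock element in Dnajb6 and to an ER stress element in Dnajc3. The window of Dnajc10 holds none of the motifs searched. These embryos had been treated with an inhibitor of transcription, and a match is a description of the letters and not a site. All 3 lie on the plus strand, Dnajc3 at chr14:118937682-118937931, Dnajc10 at chr2:80315216-80315465 and Dnajb6 (its more upstream start) at chr5:29735648-29735897.
Dnajc3: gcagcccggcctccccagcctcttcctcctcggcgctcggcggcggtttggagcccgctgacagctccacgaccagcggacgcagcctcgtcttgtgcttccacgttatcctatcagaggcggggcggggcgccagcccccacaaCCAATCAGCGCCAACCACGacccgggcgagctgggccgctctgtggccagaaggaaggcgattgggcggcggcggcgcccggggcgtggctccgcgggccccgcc
Dnajc10: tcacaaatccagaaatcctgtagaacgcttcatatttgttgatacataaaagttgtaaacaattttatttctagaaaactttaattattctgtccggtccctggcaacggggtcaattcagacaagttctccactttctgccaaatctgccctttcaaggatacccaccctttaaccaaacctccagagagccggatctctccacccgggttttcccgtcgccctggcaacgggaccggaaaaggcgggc
Dnajb6: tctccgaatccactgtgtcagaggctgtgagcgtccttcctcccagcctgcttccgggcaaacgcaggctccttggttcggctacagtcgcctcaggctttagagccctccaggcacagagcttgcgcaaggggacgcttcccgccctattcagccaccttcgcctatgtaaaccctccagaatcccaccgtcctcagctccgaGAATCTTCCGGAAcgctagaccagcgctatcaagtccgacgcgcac

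Windows of 250 bases before a start were searched on both strands for 4 motifs, and 49 windows of 36 member genes were found among 32851. The ER stress element (CCAAT and CCACG with 9 bases of any kind between them) was in 0.113% of all windows and in 1 member, Dnajc3, where it began 105 bases before the start. The heat shock element (GAA, TTC and GAA, each 2 bases apart) was in 0.466% of all windows and in 1 member, Dnajb6. The unfolded protein response element TGACGTGG was in 0.563% and in 1 member, Dnajc25, and the second form of the ER stress element (ATTGG and CCACG 1 base apart) was in 0.0304% and in 0 members. These motifs do not overlap each other in the windows printed.

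The arrays were not alike. The correlations of log2 signal over the probe sets kept were 0.928 to 0.958 among MII arrays and 0.763 to 0.944 among one-cell arrays. One-cell array 1 stood apart: its median intensity was 71.8, where the other 7 arrays had 26.9 to 37.9. The geometric mean of the hybridization controls was 917, 1364, 905 and 1244 on MII arrays 1 to 4. It was 14879, 2528, 857 and 3718 on one-cell arrays 1 to 4, so one-cell arrays 1, 2 and 4 lay above every MII array. Values without one-cell array 1 are given where they change a call. Oocyte markers had a summed intensity of 82357 to 110928 on MII arrays and 46647 to 73480.1 on one-cell arrays. Of 11 tested, 3 were higher and 4 lower (0 and 3 after centring in the limma test, also 0 higher at an unadjusted p under 0.05), with Mos, the kinase that holds metaphase II arrest, -5.57 ± 0.31 and the oocyte linker histone H1f8 at a mean of 15200.4 on MII arrays and 3851 on one-cell arrays (both lower). For 11 cumulus and granulosa markers the sum was 488 to 601 on MII arrays and 359 to 1278 on one-cell arrays (at most 697 without one-cell array 1), and 0 of the 6 that passed the filter changed in the limma test (also 0 at an unadjusted p under 0.05; Foxl2 0.53 ± 0.33, Inha -0.46 ± 0.34), while 1 was lower after either rescaling. For 10 sperm and spermatid markers it was 2748 to 3602 and 1212 to 2730.4. Most of that sum was Odf2, which did not pass (-1.02 ± 0.40), and without it the sum was 292 to 345 on MII arrays and 261 to 680.1 on one-cell arrays (at most 391 without one-cell array 1). Of 7 sperm markers tested, 1 was higher (Prm2, 1.96 ± 0.39, adjusted p = 0.00103) and 1 was lower (Akap4, -1.77 ± 0.41, adjusted p = 0.00333). No marker list summed to 0 on any array, 1 cumulus and 2 sperm markers lay at or under the median on all 8 arrays, and the part of these cell types in the results was not tested.

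Of the 44 DnaJ genes, 39 had a probe set above the array median on at least 4 of the 8 arrays and were tested (78 of 104 probe sets). Each change is the mean log2(intensity + 10) in one-cell embryos less that in MII oocytes, with its limma standard error. These changes understate the change of dim genes. A gene stands by its brightest tested probe set, and p-values were adjusted over all 23336 probe sets kept. Signals are relative to each array's total, so a change shared by all polysomal mRNAs would not show. Because only polysomal mRNA was arrayed, less of an mRNA per egg and less of it on ribosomes cannot be told apart. Fewer cells and less RNA per cell cannot be told apart either.

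In one-cell embryos 15 of the 39 genes were higher and 3 were lower than in MII oocytes. That is 46.2% of the DnaJ genes tested, against 34.8% of all 12359 genes (38.5% against 20.1% higher and 7.69% against 14.7% lower). Some genes passed the filter only through the group where they were bright, so this count describes the members and supports nothing about them. The scaling moves the split: quantile normalization gave 12 higher and 3 lower, and centring the arrays on their medians gave 8 and 3. The share of all genes that changed in either direction was 31.7% after quantile normalization and 25.9% after centring. Over all probe sets kept, 60.2% of calls were higher in the deposited scaling. Quantile normalization made that 48.7% and centring 50.8%. The median change of all genes was 0.16, -0.10 and -0.16 in these scalings. Of the 3 lower genes, Dnaja4 had another probe set that was higher, as given below. In 14 DnaJ genes (35.9%) every one-cell array lay above every MII array, against 19.9% of all genes, and 13 of these passed the test (Dnajc5b did not). In 3 (7.69%) every one-cell array lay below, against 15.3% of all genes. Dnaja1 and Dnajb6 passed with overlapping groups.

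**Figure D1:**
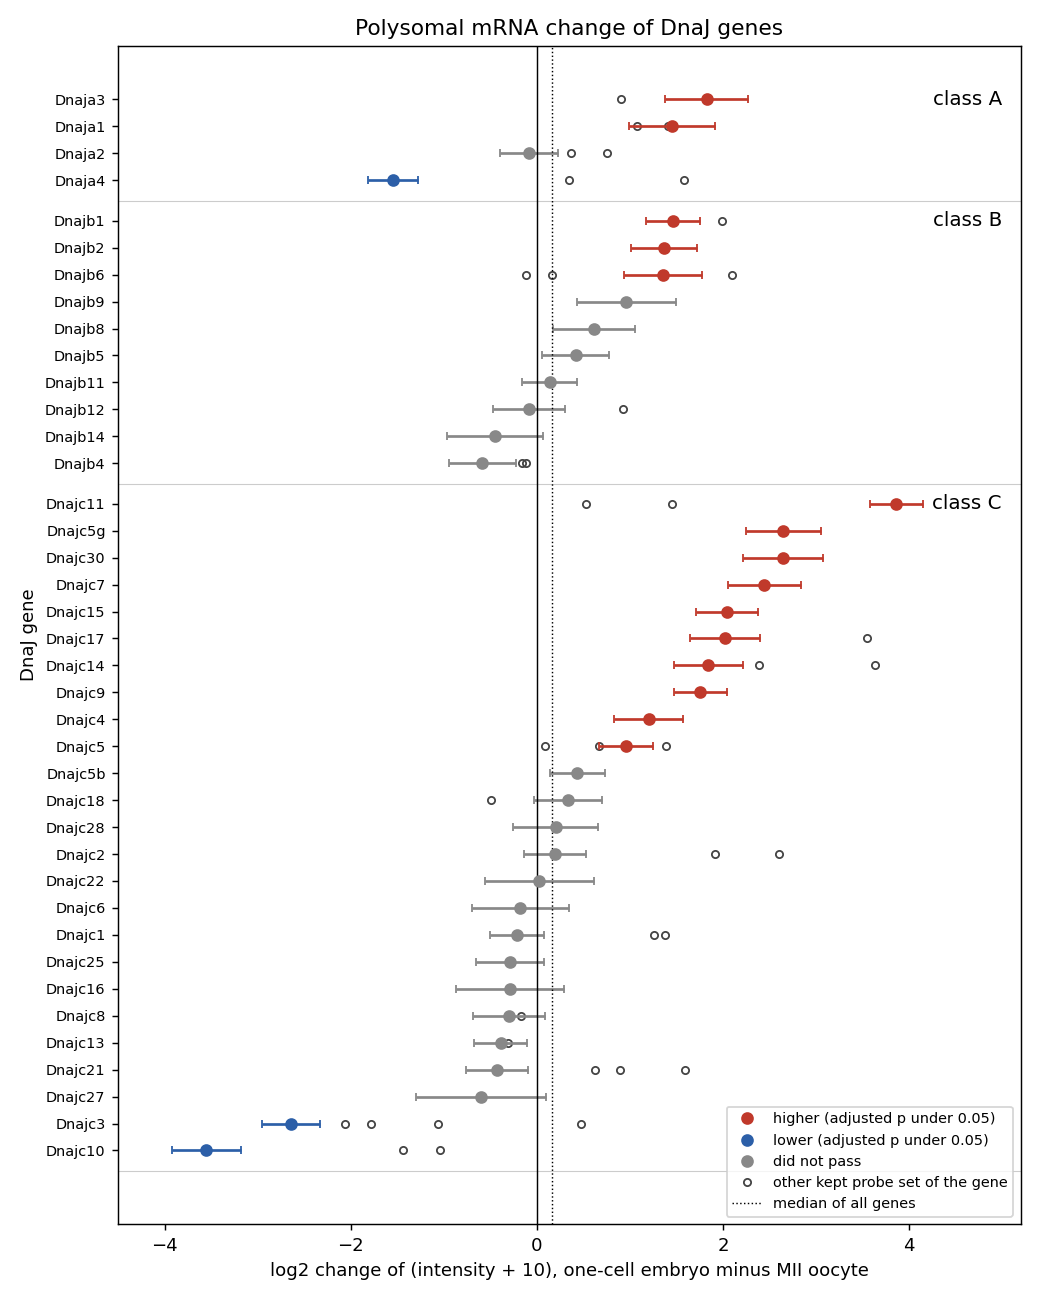
Log2 change of (intensity + 10), one-cell embryo minus MII oocyte, for the 39 DnaJ genes tested, by class. Filled points are the brightest probe set of a gene with the limma standard error, open points its other kept probe sets, and the dotted line the median of all genes (0.16). Dnajc10 and Dnajc3 lie farthest to the left and Dnajc11 farthest to the right, all in class C.

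Class C held the largest changes in both directions and also the most genes. In class A, 2 of 4 genes were higher and 1 was lower, with changes from -1.54 to 1.83 and a median of 0.68. Class B held 3 higher and 0 lower of 10 (also 0 lower at an unadjusted p under 0.05), with changes from -0.59 to 1.46 and a median of 0.52. In class C, 10 of 25 were higher and 2 lower, and the changes ran from -3.55 to 3.86 with a median of 0.20, near the 0.16 of all genes. The shares higher and lower were 50% and 25% in class A, 30% and 0% in class B, and 40% and 8% in class C. Of all genes, 20.1% were higher and 14.7% lower. The differences between classes were not tested, since the members were chosen with results known. After centring class A had 0 higher and 1 lower, class B 0 and 0, and class C 8 and 2. At an unadjusted p under 0.05 the centred fit gave 1 higher in class A, 2 higher and 0 lower in class B. The limma test lost the 3 class B calls there, with changes between 1.04 and 1.15. Counted over probe sets, 5 of 11 in class A were higher and 1 lower, 5 and 0 of 17 in class B, and 21 and 7 of 50 in class C. Of all probe sets kept, 32.1% changed, 19.3% higher and 12.8% lower.

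The largest falls among DnaJ genes were those of Dnajc10 and Dnajc3, both known from the ER lumen. Dnajc10 (ERdj5) is a disulfide reductase that helps to unfold proteins for ER-associated degradation. Its signal was 2075, 1975, 2741 and 2603 on MII arrays 1 to 4 and 77.9, 211, 379 and 197 on one-cell arrays 1 to 4. Every one-cell array lay far below every MII array. The mean fell from 2348 ± 380.1 to 216 ± 124 (SD, n = 4), 10.9-fold, a log2 change of -3.55 ± 0.37, adjusted p = 3.28e-06. Its other 2 probe sets also passed, with changes of -1.04 ± 0.28 and -1.44 ± 0.46, and the mean of the 3 was -2.01 ± 0.31. One-cell array 1 was the lowest of the 8 for the brightest probe set, and leaving it out gave -3.16 ± 0.28.

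Dnajc3 (P58IPK) binds unfolded proteins in the ER lumen with the ER Hsp70 and is known as an inhibitor of eIF2 alpha kinases. Its signal was 4539, 2483, 4787 and 3209 on MII arrays 1 to 4 and 462, 521, 823 and 534 on one-cell arrays 1 to 4. The groups were far apart, although MII arrays 2 and 4 were lower than 1 and 3. The mean fell from 3755 ± 1095 to 585 ± 162 (SD, n = 4), 6.42-fold, a log2 change of -2.65 ± 0.31, adjusted p = 9.4e-06. Of its 5 probe sets 4 were lower, the other 3 with changes of -2.07 ± 0.29, -1.78 ± 0.32 and -1.06 ± 0.39. The remaining one did not pass (0.48 ± 0.34, adjusted p = 0.328), and the mean of all 5 was -1.42 ± 0.23.

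The other members of the ER list did not pass the test with their brightest probe set. Of 10 genes listed for the ER lumen or membrane, 0 were higher and 2 lower in the limma test, with a median of -0.25. The lower share was 20%, against 14.7% of all genes, and 20.1% of all genes were higher. At an unadjusted p under 0.05 the count of higher ones was also 0. Dnajc10 and Dnajc3 passed after quantile normalization and centring too, as the 2 lower genes of the group. Dnajc14, also known from the ER membrane, was listed with vesicles and endosomes and was higher. With Dnajc14 counted here, 1 gene was higher and 2 were lower of 11. Dnajb11 (ERdj3), a cofactor of the ER Hsp70 that binds unfolded proteins, gave 126, 178, 161 and 159.8 on MII arrays 1 to 4 and 254, 132, 179 and 145 on one-cell arrays 1 to 4. The groups overlapped, and the change was 0.14 ± 0.29 (95% interval -0.48 to 0.76), an interval that excludes a 2-fold rise or fall. Dnajb9 (ERdj4), which is known to be induced by ER stress and to repress the stress sensor Ire1, gave 35.1, 26.0, 35.4 and 5.5 on MII arrays 1 to 4 and 17.9, 52.4, 123 and 60.9 on one-cell arrays 1 to 4. These are dim and spread values (0.96 ± 0.53, adjusted p = 0.191), and leaving out one-cell array 1 gave a change of 1.36, adjusted p = 0.0276, past the threshold.

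Dnajb12, a tail-anchored ER membrane co-chaperone, gave 95.3, 115, 84.0 and 70.1 on MII arrays 1 to 4 and 120.4, 38.4, 62.9 and 160.2 on one-cell arrays 1 to 4, with overlapping groups (-0.084 ± 0.39, adjusted p = 0.905). Dnajc1 (ERdj1), an ER membrane protein that contacts ribosomes, changed by -0.21 ± 0.29, adjusted p = 0.646 at its brightest probe set. Its other 2 probe sets were higher (1.37 ± 0.38 and 1.26 ± 0.36), as was the mean of the 3 (0.81 ± 0.24, adjusted p = 0.0183), so its direction depends on the probe set. Dnajb14, Dnajc16, Dnajc18 and Dnajc25 lay between -0.45 and 0.33 and did not pass. Without one-cell array 1 they did not pass either, at -0.98 (from -0.45; adjusted p = 0.0711) for Dnajb14, -0.53 (from -0.29) for Dnajc16, 0.076 (from 0.33) for Dnajc18 and -0.34 (from -0.29) for Dnajc25.

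**Figure D2:**
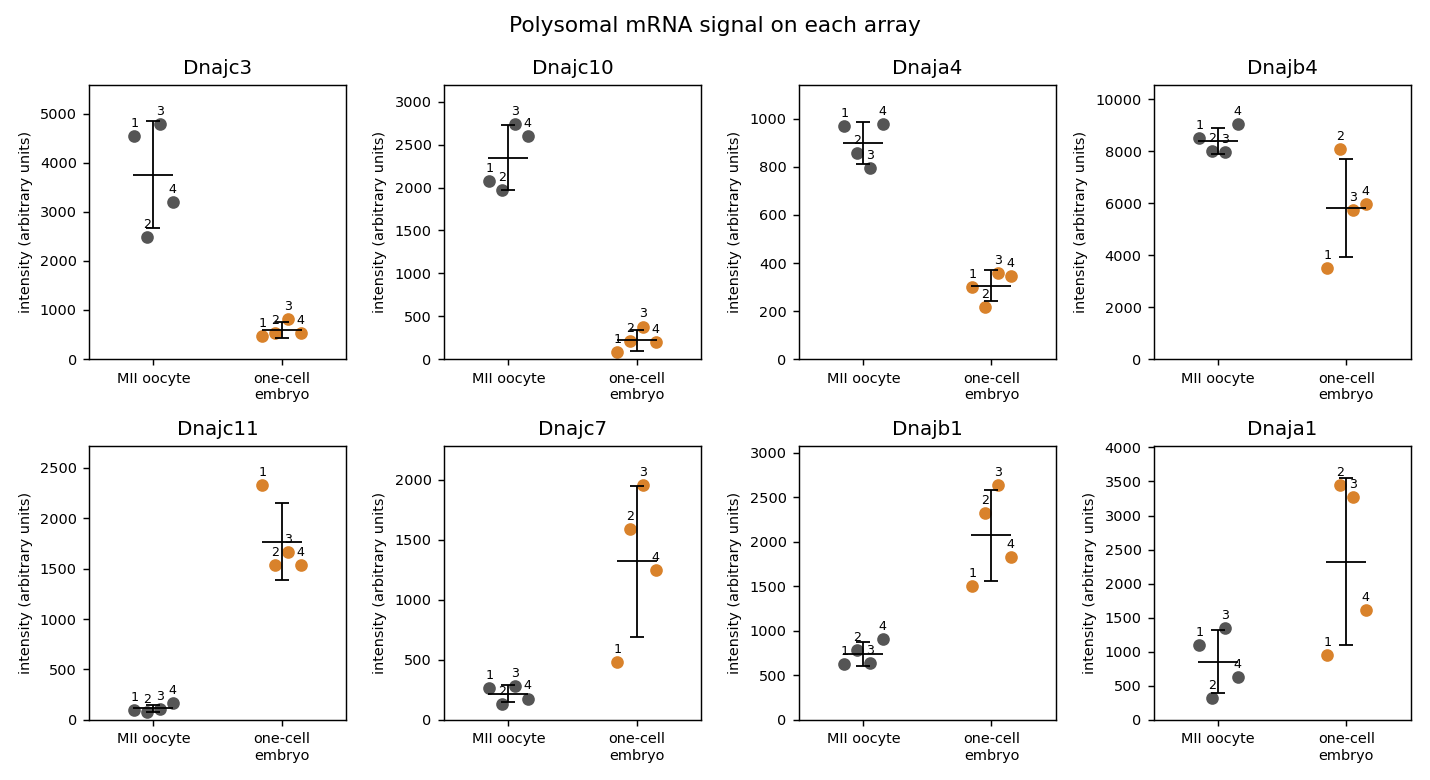
Intensity in arbitrary units on each of the 4 MII and 4 one-cell arrays (numbers are replicates) for 8 DnaJ genes, with the mean and SD of each group. The brightest probe sets of Dnajc3, Dnajc10 and Dnaja4 are lower on every one-cell array, Dnajc11, Dnajc7 and Dnajb1 higher on every one-cell array, and Dnajb4 and Dnaja1 overlap between the groups.

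Mitochondrial DnaJ genes were higher in 4 of 5 tested and lower in 0 (limma; also 0 at an unadjusted p under 0.05), where 20.1% of all genes were higher and 14.7% lower, and their median was 2.04. The list was chosen with results known, so the count is a description. The count of higher ones was 4 after quantile normalization and 3 after centring in the limma test. Dnajc11 belongs to the complex that links the outer membrane to the cristae. Its signal was 100.5, 81.4, 110.4 and 162 on MII arrays 1 to 4 and 2333, 1533, 1664 and 1539.7 on one-cell arrays 1 to 4. The lowest one-cell array was over 9 times the highest MII array. The mean rose from 114 ± 34.5 to 1767 ± 382 (SD, n = 4), 15.6-fold, a log2 change of 3.86 ± 0.29, adjusted p = 1.82e-07. A second probe set rose by 1.46 ± 0.27 and the third did not pass (0.52 ± 0.35).

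Dnaja3 (Tid1), the class A member of the mitochondrial matrix, gave 25.6, 139.8, 109.6 and 176 on MII arrays 1 to 4 and 227, 468, 306 and 516 on one-cell arrays 1 to 4. The groups did not overlap, with MII array 1 lowest of all (1.83 ± 0.45, adjusted p = 0.00456). After centring its change was 1.51, adjusted p = 0.0524, and its second probe set did not pass (0.91 ± 0.40, adjusted p = 0.0943). Dnajc15, a J protein of the protein import motor, rose by 2.04 ± 0.33, adjusted p = 0.00019, from 33.5 ± 10.9 to 167 ± 31.6 (SD, n = 4). Dnajc30, an inner membrane protein tied to the respiratory chain, rose by 2.64 ± 0.43, adjusted p = 0.000188. Both lay above the array median on only 2 of 4 MII arrays, so their fold is poorly set. Dnajc28 did not pass (0.20 ± 0.46, adjusted p = 0.792). The 3 probe sets of Dnajc19, the other J protein of the import motor, are also annotated to its pseudogene and are not members.

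Cytosolic folding co-chaperones held rises and 1 fall: of 9 genes, 5 were higher and 1 lower, with a median of 1.36. That is 55.6% higher and 11.1% lower, where 20.1% and 14.7% of all genes were. This list too was chosen with results known, so the count is a description. The count of rises was 4 after quantile normalization, 1 after centring, and 3 without MII array 2, one-cell array 2 or one-cell array 3. Dnajb1 (Hsp40), the heat-inducible class B partner of Hsp70, gave 624, 778, 636 and 905 on MII arrays 1 to 4 and 1498, 2317, 2639 and 1828 on one-cell arrays 1 to 4. The groups did not overlap. It rose from 736 ± 133 to 2070.5 ± 507 (SD, n = 4), 2.81-fold (1.46 ± 0.29, adjusted p = 0.000947), and by 1.99 ± 0.35 at its second probe set. Centring took its call (1.15, adjusted p = 0.0811).

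Dnaja1, a class A partner of Hsp70 in the cytosol, gave 1093, 319, 1354 and 633 on MII arrays 1 to 4 and 956, 3451, 3268 and 1613 on one-cell arrays 1 to 4. The groups overlapped, since one-cell array 1 lay below MII arrays 1 and 3 (1.45 ± 0.46, adjusted p = 0.0235). All 3 of its probe sets passed, and in 1 of them the groups did not overlap (1.41 ± 0.29, adjusted p = 0.00131). The brightest probe set missed the threshold after centring (1.13, adjusted p = 0.239) and without any 1 of 4 arrays: MII array 2 (1.05, adjusted p = 0.0882), MII array 4 (1.38, adjusted p = 0.0589), one-cell array 2 (1.20, adjusted p = 0.0758) or one-cell array 3 (1.23, adjusted p = 0.0749).

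Dnaja2, its close relative, gave 1524, 1190.4, 1795 and 1733 on MII arrays 1 to 4 and 995, 1955, 1924 and 1177 on one-cell arrays 1 to 4. The groups overlapped, with a change of -0.088 ± 0.31 (95% interval -0.75 to 0.57), and none of its other 2 kept probe sets passed (0.75 ± 0.42 and 0.37 ± 0.31). Whether Dnaja1 and Dnaja2 differ in their change was not tested.

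Dnaja4 was the only gene among the 39 whose probe sets passed in opposite directions. The brightest gave 969.6, 857, 795 and 979 on MII arrays 1 to 4 and 301, 219, 359.8 and 345 on one-cell arrays 1 to 4, all one-cell arrays below all MII arrays (-1.54 ± 0.27, adjusted p = 0.000325). Another gave 85.3, 26.0, 56.3 and 46.0 on MII arrays 1 to 4 and 400.0, 108, 102 and 181 on one-cell arrays 1 to 4, all one-cell arrays above all MII arrays (1.58 ± 0.43, adjusted p = 0.00901). The third did not pass (0.35 ± 0.33), and the mean of the 3 was 0.13 ± 0.24 (adjusted p = 0.731). The direction of Dnaja4 is therefore not settled.

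Dnajb2, a class B member that sorts ubiquitylated clients to the proteasome, gave 55.0, 38.6, 52.1 and 60.4 on MII arrays 1 to 4 and 88.9, 217, 215 and 112 on one-cell arrays 1 to 4. The groups did not overlap (1.37 ± 0.35, adjusted p = 0.00654), and the call was lost after quantile normalization (0.81, adjusted p = 0.156) and centring (1.05, adjusted p = 0.103). Dnajb6, a suppressor of protein aggregation whose promoter window is printed above, gave 546, 192, 775 and 694 on MII arrays 1 to 4 and 948, 1866, 1893 and 773 on one-cell arrays 1 to 4. Here the groups overlapped through one-cell array 4 and MII array 3 (1.36 ± 0.42, adjusted p = 0.0198). A second probe set of Dnajb6 rose with no overlap (2.09 ± 0.35, adjusted p = 0.000218), while its other 2 did not pass (0.17 ± 0.29 and -0.11 ± 0.31). The brightest probe set of Dnajb6 missed the threshold after centring (1.04, adjusted p = 0.216) and without MII array 2 (0.92, adjusted p = 0.0695), one-cell array 2 (1.17, adjusted p = 0.0621) or one-cell array 3 (1.17, adjusted p = 0.0637).

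Dnajc7 (Tpr2), which carries both a J domain and repeats that bind Hsp70 and Hsp90, rose most in this group. Its signal was 268, 135, 283 and 177 on MII arrays 1 to 4 and 483, 1592, 1957 and 1244 on one-cell arrays 1 to 4. One-cell array 1 was the lowest of its group and still above every MII array. The mean rose from 216 ± 71.1 to 1319 ± 629 (SD, n = 4), 6.12-fold (2.45 ± 0.39, adjusted p = 0.000163), and leaving out one-cell array 1 gave 2.87 ± 0.30. Dnajb4, a cytosolic relative of Dnajb1, gave 8502, 8004, 7982 and 9048 on MII arrays 1 to 4 and 3490.0, 8103, 5722 and 5973 on one-cell arrays 1 to 4. All 3 of its probe sets were negative and none passed (-0.59 ± 0.36 at the brightest, 95% interval -1.34 to 0.17). Dnajb5 did not pass either (0.42 ± 0.36, adjusted p = 0.433).

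Among 5 tested members tied to RNA, the ribosome or chromatin, 2 were higher and 0 lower, with a median of 0.20. Shares of this group were 40% and 0%, against 20.1% and 14.7% of all genes. At an unadjusted p under 0.05 the count of lower ones was also 0. Dnajc9, a histone H3-H4 co-chaperone, gave 165, 152, 224 and 195 on MII arrays 1 to 4 and 564, 700.0, 931 and 455 on one-cell arrays 1 to 4. Every one-cell array exceeded every MII array (1.76 ± 0.29, adjusted p = 0.000212), a 3.6-fold rise. Dnajc17, a splicing-associated member, rose at both kept probe sets (2.02 ± 0.37 and 3.55 ± 0.57). The larger value includes 1658 on one-cell array 1, where the rest of the one-cell group spanned 122 to 337, and that probe set lay above the median on only 1 MII array.

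Dnajc8, a splicing-associated member, gave 5939.7, 6171, 6209 and 6890.4 on MII arrays 1 to 4 and 2458, 8418, 5875 and 5675 on one-cell arrays 1 to 4. One-cell array 1 was far below its group, the groups overlapped and the change was -0.30 ± 0.39 (95% interval -1.11 to 0.52). Dnajc2 (Mpp11), the ribosome-associated J protein that meets nascent chains, and Dnajc21, which acts in the maturation of the large ribosomal subunit, depended on the probe set. The brightest probe set of Dnajc2 gave 0.20 ± 0.33, adjusted p = 0.714, but its other 2 kept ones rose by 2.60 ± 0.40 and 1.91 ± 0.45, and the mean of the 3 was 1.57 ± 0.34 (adjusted p = 0.00235). Dnajc21 gave -0.43 ± 0.33, adjusted p = 0.368 at its brightest probe set and 1.59 ± 0.31, adjusted p = 0.000929 at another, with 2 more that did not pass and a mean of 0.67 ± 0.22 (adjusted p = 0.0313). With probe sets averaged this group had 4 higher of 5.

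**Figure D3:**
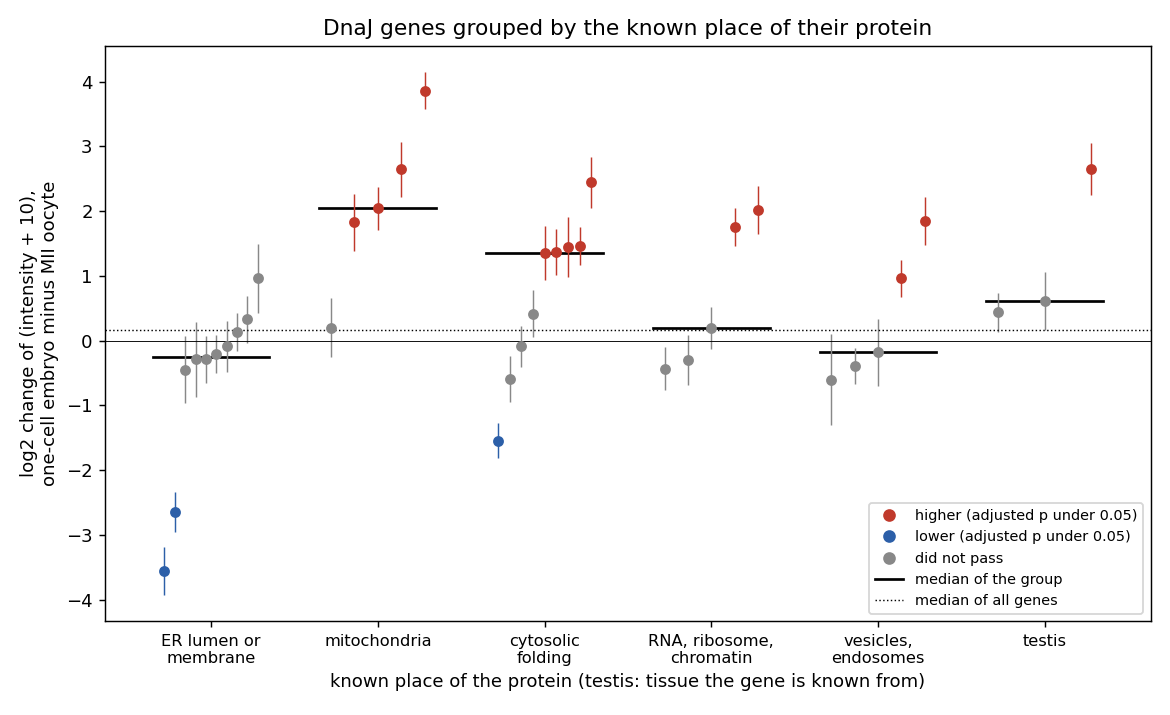
Log2 change of (intensity + 10) with the limma standard error for DnaJ genes grouped by where their protein is known to act, or by the tissue they are known from (testis). Bars are group medians (-0.25 for the ER and 2.04 for mitochondria) and the dotted line is the median of all genes (0.16). Dnajc14, also known from the ER membrane, is drawn with vesicles and endosomes.

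Of 5 members listed for vesicles and endosomes, 2 were higher and 0 lower in the limma test (also 0 lower at an unadjusted p under 0.05). As shares these are 40% and 0%, beside 20.1% and 14.7% of all genes. Dnajc14, known from the ER membrane and from receptor export, was higher at all 3 probe sets (1.84 ± 0.37, 2.39 ± 0.31 and 3.64 ± 0.26). The last of these gave 75.9, 59.4, 72.1 and 60.8 on MII arrays 1 to 4 and 1041, 858, 984 and 915 on one-cell arrays 1 to 4, with little spread within either group. Counted with the ER genes instead, it makes 1 higher and 2 lower of 11. Its brightest probe set lost the call after centring (1.53, adjusted p = 0.0594). Dnajc5, the cysteine string protein of secretory vesicles, was higher at 3 of 5 probe sets. Its brightest (0.96 ± 0.29, adjusted p = 0.017) missed the threshold after quantile normalization (0.66, adjusted p = 0.0986) and centring (0.65, adjusted p = 0.27), and without MII array 1 (0.88, adjusted p = 0.0522), MII array 2 (0.83, adjusted p = 0.0533) or one-cell array 3 (0.85, adjusted p = 0.0511).

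Dnajc13, an endosomal J protein, did not pass at either probe set (-0.39 ± 0.28 and -0.31 ± 0.29). Dnajc6 (auxilin), which uncoats clathrin vesicles, gave 16.3, 45.4, 26.0 and 37.2 on MII arrays 1 to 4 and 5.1, 40.4, 30.0 and 39.7 on one-cell arrays 1 to 4, dim on every array (-0.18 ± 0.52, adjusted p = 0.842). Dnajc27, a Rab-like protein, ran from 4.7 to 151 over the one-cell arrays and did not pass (-0.60 ± 0.70, adjusted p = 0.576). Without MII array 1, MII array 2 or one-cell array 3 the count of rises in this group was 1. It was 1 after quantile normalization and 0 after centring (1 at an unadjusted p under 0.05).

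Of 6 genes known mainly from testis, Dnajb3, Dnajb7 and Dnajb13 did not reach the filter, with no value above 46.3 outside one-cell array 1 (68.4 there for Dnajb7). Dnajb8 and Dnajc5b, the first a class B suppressor of aggregation and the second a relative of the cysteine string protein, were tested and did not pass (0.61 ± 0.44 and 0.44 ± 0.30). The remaining gene, Dnajc5g, also a relative of the cysteine string protein, gave 11.9, 6.0, 5.8 and 7.7 on MII arrays 1 to 4 and 101, 89.0, 112 and 103 on one-cell arrays 1 to 4. All MII values lay under their array's median and all one-cell values above it, so the change (2.65 ± 0.40, adjusted p = 0.0001) is poorly set in size. Because it passed the filter only through the one-cell arrays, it dropped out of the test whenever 1 of these was left out. Sperm marker levels are given above, and their part in this result was not tested. Outside the testis list, Dnajc12 (5.5 to 77.1) and Dnajc24 (0.7 to 47.5, at most 5.5 without one-cell array 1) also missed the filter. Dnajc24 takes part in making diphthamide on elongation factor 2, and Dnajc12 serves aromatic amino acid hydroxylases.

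In no group of this kind, Dnajc4 rose by 1.20 ± 0.37, adjusted p = 0.0193, a call lost after quantile normalization (0.87, adjusted p = 0.0639) and without MII array 1 (1.09, adjusted p = 0.0594) or one-cell array 4 (1.10, adjusted p = 0.0642). Dnajc22 gave 39.3, 43.7, 21.8 and 21.5 on MII arrays 1 to 4 and 113, 50.4, 9.9 and 9.3 on one-cell arrays 1 to 4, and with such spread its interval was wide (-1.21 to 1.27).

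Probe sets of 1 gene often differed. Of 20 DnaJ genes with more than 1 kept probe set, 12 had changes of 1 sign throughout, and in 5 (Dnaja1, Dnajb1, Dnajc10, Dnajc14 and Dnajc17) every probe set passed in 1 direction. In 8 genes some passed and some did not, those that passed in 1 direction, in 6 none passed, and in 1, Dnaja4, they passed in opposite directions. Dnajc1, Dnajc2 and Dnajc21 changed only at probe sets other than the brightest, all upward. Of the 18 genes called, 9 were kept in all fits that left out 1 array and passed in every alternative fit of the brightest probe set that kept it: Dnaja4, Dnajc3, Dnajc7, Dnajc9, Dnajc10, Dnajc11, Dnajc15, Dnajc17 and Dnajc30. Dnajc5g could not be tested without any of the one-cell arrays. With the probe sets of a gene averaged, 18 DnaJ genes were higher and 2 lower: Dnaja4 no longer passed, and Dnajc1, Dnajc2 and Dnajc21 did. Of all genes, 34.9% changed in either direction in that fit.

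The Hsp70 partners of these co-chaperones moved in both directions, at shares near those of all genes. By their brightest probe sets 25% were higher and 12.5% lower, against 20.1% and 14.7% of all 12359 genes. Of 8 Hsp70 genes tested, 2 were higher and 1 lower (Hspa14; 2 lower after quantile normalization, and with probe sets averaged 3, with Hspa9 and Hspa13), with Hspa8, the constitutive cytosolic Hsp70, rising most (718 ± 258 to 5398 ± 2836, SD, n = 4, 2.84 ± 0.38, adjusted p = 2.94e-05) and Hspa1b next (1.49 ± 0.36). Hspa9, the mitochondrial Hsp70, did not pass at its brightest probe set (-0.41 ± 0.35, adjusted p = 0.432), while 2 of its 4 were lower (mean -1.01, adjusted p = 0.0114). Hspa13 had a mean of -1.20 (adjusted p = 0.013). Hspa5, the ER Hsp70 that works with Dnajc3 and Dnajc10, did not pass at any of its 3 probe sets (0.068 ± 0.27, adjusted p = 0.887 at the brightest). Of 13 nucleotide exchange factors, which release ADP from Hsp70, 7 were higher (6 after either rescaling) and 1 lower, with the smallest p for Bag4 (3.45 ± 0.29) and Hsph1 (2.96 ± 0.29). Their shares were 53.8% higher and 7.69% lower, against 20.1% and 14.7% of all genes. Bag1, Bag6 and Sil1, among the higher ones, had dim MII means (15.4, 18.6 and 19.7). This list was also chosen with results known, so the count of exchange factors is a description. With probe sets averaged 6 were higher, and Hyou1 no longer passed. Hspa4, counted as higher by its brightest probe set, had another that was lower, which leaves its direction unsettled (mean of the 3 0.061, adjusted p = 0.918). Hspa4l, not called by its brightest probe set, also had opposite calls: 1 higher and 2 lower of 5 (mean -0.40, adjusted p = 0.201). The 2 exchange factors of the ER were chosen after their values were seen: Sil1 rose (3.30 ± 0.40, adjusted p = 1.24e-05, from a dim MII signal), while Hyou1 fell at its brightest probe set (-2.13 ± 0.41, adjusted p = 0.000778) but not at its other 2 (mean of the 3 -0.24).

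Of 7 co-chaperones and chaperones that link Hsp70 and Hsp90, 2 were higher and 1 lower (Ahsa1, -1.08 ± 0.37; 1 higher and 0 lower after centring in the limma test, with 2 lower at an unadjusted p under 0.05), with the smallest p for Cdc37 (2.91 ± 0.36, adjusted p = 1.44e-05) and Stip1 (1.22 ± 0.33, adjusted p = 0.0088), which bridges Hsp70 and Hsp90. These shares are 28.6% and 14.3%, beside 20.1% and 14.7% of all genes. Only 1 of the 2 kept probe sets of Ahsa1 was lower, and their mean was -0.17 (adjusted p = 0.639). With probe sets averaged 3 of the list were higher, St13 among them (0.76, adjusted p = 0.0139), and 0 lower. Of the J-domain proteins with other symbols, 3 were tested and 0 passed in the limma test, with Sec63 of the ER translocon (0.71 ± 0.31, adjusted p = 0.0906, unadjusted p = 0.0338) ahead of Pam16 (0.28 ± 0.36). Sec63 was the 1 of the 3 with an unadjusted p under 0.05, and after either rescaling there were 0.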

How the data were processed

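Polysomal mRNA of 4 MII oocyte and 4 one-cell embryo batches was measured on arrays with 45101 probe sets. What the authors deposited is a linear intensity for every probe set on every array. Judged by the values, the mean after leaving out the lowest and highest 2% was the same on all arrays, so they had been scaled. Software and build were not given in the sources used here, and the number of arrays limits the precision. The 64 controls were left out. An offset of 10 was added before log2, and a probe set was kept if it exceeded the median of its array on 4 or more of the 8. Groups were compared with limma 3.58.1 in R 4.3.3 (lmFit, eBayes with trend, two-sided, Benjamini-Hochberg adjustment over all kept probe sets, threshold 0.05), tested on simulated data. A gene stands by its brightest kept probe set, and changes, not levels, are compared between genes. Members, lists and tests were chosen with earlier results of these data known.

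Per-array values are printed for the 4 genes (3 in class A) with the smallest p in each class, the 2 with the smallest change in each class, and genes whose probe sets passed in opposite directions. Of each list outside the DnaJ genes the 2 with the smallest p are named. Dnajc7, Dnajc8, Dnajc9, Dnajc14, Dnajb4, Hspa4, Hspa5, Hspa9, Hspa13, Hspa14, Odf2, Ahsa1, Sil1, Hyou1 and the genes discussed for their probe sets or lost calls were picked after their values were seen. Promoter windows of 250 bases come from RefSeq (GRCm38.p6). Alternatives were quantile normalization, median centring, offsets of 1 and 50, no filter, a filter at the 75th percentile, no variance trend, a replicate block, leaving out single arrays, and the mean of a gene's probe sets. The same alternatives for counts by place in the cell, averaged probe sets for the Hsp70 and Hsp90 lists, Dnajc14 counted with the ER genes, and marker sums without a gene or array were added after seeing the data.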

Additional observations from a re-analysis of the deposited data

Results flagged for a closer look

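In 3 of the 78 groups of 4 arrays (39 genes, 2 stages), 1 array stood far from the other 3 on the log2 scale by Dixon's test, which chance alone gives in about 1 group in 20. Dnajc16, an ER member, had an intensity of 5.5 on MII array 3, and the rest of its group had 69.3 to 91.1. Dnajc2, the ribosome-associated member, had 158 on MII array 2 against 339 to 393. Dnajc28, a mitochondrial member, had 143 on one-cell array 1 against 29.7 to 37.8, and without that array its change was -0.25 ± 0.34 instead of 0.20 ± 0.46. The brightest probe set of none of the 3 genes passed the limma test with or without that array.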

How the results depend on the processing

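Median centring left 8 DnaJ genes higher, 0 in class A and 0 in class B. Leaving out 1 array gave 11 to 15 higher DnaJ genes, 1 to 2 in class A and 2 to 4 in class B, and 3 lower DnaJ genes each time. The filter at the 75th percentile kept 23 DnaJ genes and gave 11 higher (7 in class C against 10). In that fit 54.1% of all genes changed in either direction. Averaging probe sets gave 18 higher of 39 (13 in class C) with 0 class A genes lower, where 34.9% of all genes changed. The DnaJ median relative to all genes (0.17) was 0.44 with the filter at the 75th percentile, 0.42 with probe sets averaged, 0.065 without a filter, 0.10 with an offset of 50 and 0.17 to 0.30 with 1 array left out. For class A (0.52, between-array SD 0.563) it was 0.94 after quantile normalization and 0.22 (without MII array 2) to 0.94 (without one-cell array 1). For class B (0.36) it was 0.26 after quantile normalization, 0.24 with an offset of 50, 0.048 without a filter, 0.44 at the 75th percentile and 0.18 to 0.50 with 1 array left out. For class C (0.043) it was 0.16 after quantile normalization, 0.60 at the 75th percentile, 0.47 with probe sets averaged and 0.095 to 0.28 with 1 array left out. The replicate block, with the array number as a block, gave 15 higher and 3 lower DnaJ genes. Deviations of same-numbered arrays correlated at -0.16 to 0.14 and those of other-numbered arrays at -0.27 to 0.19. Of 4 MII arrays, 2 correlated best with their own number. With only 4 pairs, whether the numbers pair the arrays cannot be settled. The sign of uncalled genes turned after quantile normalization (Dnaja2 0.28, Dnajb11 -0.28, Dnajc13 0.061, Dnajc18 -0.056, Dnajc2 -0.10, Dnajc21 0.10, Dnajc22 -0.29, Dnajc28 -0.10, Dnajc5b -0.035 and Dnajc8 0.23), after centring (Dnajb11 -0.18, Dnajc2 -0.12, Dnajc22 -0.29 and Dnajc28 -0.11) and with an offset of 1 (Dnajc22 -0.12). With 1 array left out it crossed 0 in Dnaja2 -0.23 to 0.091, Dnajb11 -0.040 to 0.26, Dnajb12 -0.37 to 0.24, Dnajc2 -0.086 to 0.33, Dnajc22 -0.092 to 0.39, Dnajc28 -0.25 to 0.40, Dnajc6 -0.38 to 0.23 and Dnajc8 -0.53 to 0.057. No called gene turned sign in these fits of its brightest probe set. The cause was not tested. Genes without a kept probe set under a setting have no value there (16 of 39 at the 75th percentile). Dim MII signals limit the size of several rises, Dnajc5g, Dnajc15 and Dnajc30 among them.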
